A study of Rattus norvegicus with 6 samples.

Results

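The 64 genes described here belong to families whose proteins fill, dock and fuse synaptic vesicles, with some members that act at other membranes. For short all 64 are called release genes. They were chosen by a rule on gene symbols, set with earlier results of these data known. They cover the synaptotagmins, synapsins 1 to 3, SNAP-25 relatives, VAMPs, syntaxins, syntaxin-binding proteins, complexins, Rab3 GTPases, SV2 proteins and vesicular glutamate transporters. The rat gene table they come from held 27943 symbols on 43350 rows. Where several rows carried a symbol, the protein-coding row with the largest summed count was used. The RNA came from whole lumbar 4-6 dorsal root ganglia (DRG) of male Sprague-Dawley rats on the operated side, taken on day 11 after surgery. In 3 rats the sciatic nerve had been loosely ligated (chronic constriction injury, CCI), and in 3 rats it had been exposed but not tied (sham). Both groups went through anaesthesia, skin incision, nerve exposure, behavioural testing and saline perfusion, and the methods state that rats were kept for a group only when their behaviour fitted the model. The labels list no treatment for the sham rats, mention a pooled sample and give no age, whereas according to the methods each sample was 1 rat and sham surgery laid the nerve bare, and the methods were followed here.

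A sensory neuron of the DRG makes these mRNAs in its cell body, and much of the protein is shipped to nerve endings in the spinal cord and the periphery. Release begins when a vesicle SNARE such as synaptobrevin (VAMP) zips together with syntaxin and SNAP-25 on the plasma membrane, while complexin clamps the partly zipped complex and a synaptotagmin senses the calcium that triggers fusion. Other members of the same families work elsewhere in the cell, between the Golgi, endosomes, lysosomes and autophagosomes, and in secretory cells of the blood and immune system. The pathway terms carried by the table place 21 of the 64 genes among SNARE interactions in vesicular transport and 15 in the synaptic vesicle cycle.

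Library totals lay between 75423546 and 87615743 counts, so that a count of 0 allows at most 0.0341 to 0.0394 CPM (the count of a row relative to the TMM-scaled library size), a limit that covers counting error only. A row was tested with edgeR's quasi-likelihood test if its mean FPKM (reads scaled to library total and row length, so a level per length) was at least 0.5 over the 6 libraries, which 57 of the 64 genes and 26663 rows in all fulfilled. The limits for a call were those of the study, an unadjusted p under 0.05 together with a log2 fold change of 0.58 or more in either direction. Markers of 5 cell types were read beside the release genes. Skeletal muscle genes summed to 488 CPM in sham 1 against 54.1 to 121 CPM in the other 5 libraries, so sham 1 stood apart. Counts that moved without sham 1 are given below. Pvalb, a gene of that list which proprioceptive neurons also express, held 83.5 CPM of the sum in sham 1. In CCI 3, the library with the lowest sum, it held 45.1 of the 54.1 CPM.

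In these ganglia the release machinery was abundant. The complexin Cplx1, which grips the assembled SNARE complex, had the highest mean level at 270 FPKM over the 6 libraries, followed by the vesicle SNARE Vamp1 at 239 FPKM, Syt11 at 233 FPKM and the plasma membrane SNARE Snap25 at 203 FPKM. Also high were the vesicle protein Sv2c at 161 FPKM, the vesicle GTPase Rab3a at 142 FPKM and the vesicle SNARE Vamp2 at 130 FPKM. In the sham libraries the range of Cplx1 (256 to 281 FPKM) overlapped that of Vamp1 (279 to 284 FPKM), and the range of Snap25 (188 to 264 FPKM) overlapped that of Syt11 (228 to 237 FPKM). From Sv2c through Rab3a to Vamp2 no gene overlapped its neighbour in that order. The synaptotagmins Syt4, Syt2 and Syt1 had mean levels of 81.6, 62.9 and 55.5 FPKM. At the low end among the tested genes stood Syt16 at 0.714 FPKM and Syt15 at 1.16 FPKM.

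**Figure D1:**
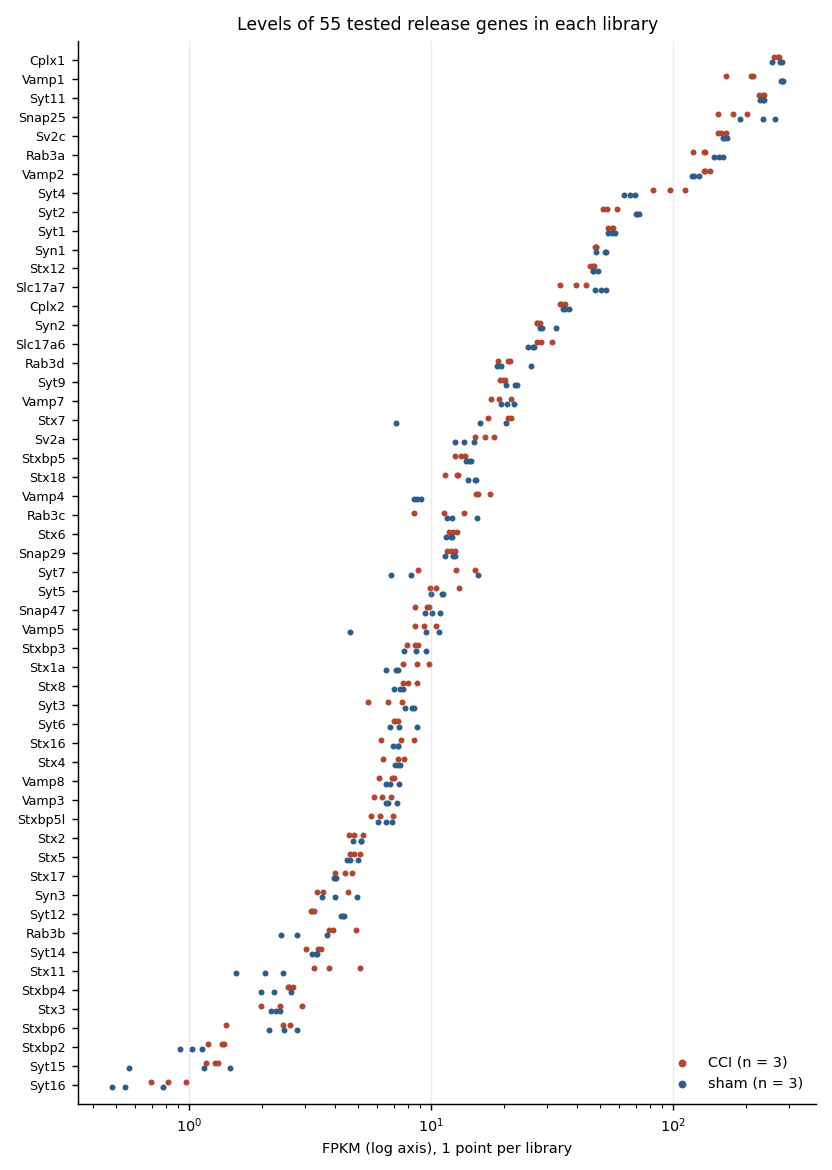
FPKM of 55 tested release genes on a log axis, 1 point per library, with CCI in red and sham in blue and genes ordered by the mean of all 6 libraries. The genes run from 0.714 FPKM (Syt16) to 270 FPKM (Cplx1), and for most genes the red and blue points overlap.

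The comparison of CCI with sham asks which release genes differ in the ganglia of the injured nerve. The vesicle SNARE Vamp4 and the syntaxin Stx11 rose, and no release gene was called lower. The largest decrease was that of Vamp1, which stayed short of the fold limit. Of the 57 tested genes 2 were called higher, beside 2.57% of all rows tested, and 0 were called lower, beside 1.26% of all rows. DESeq2 and both limma fits called the same numbers. At an adjusted p under 0.05 edgeR called 1 gene, Vamp4, beside 0.0938% of all rows, and DESeq2 called 7, beside 2.8% of all rows. Counting unadjusted p under 0.05 at any size, 7 genes (12.3%) were higher, beside 5.57% of all rows, and 8 genes (14.0%) were lower, beside 5.18%. These 15 genes belong to 7 of the 10 families. The count of 7 was 3 without CCI 1 and 4 without sham 2, and the counts without sham 1 were 5 higher and 10 lower.

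The 3 CCI libraries lay wholly above the 3 sham libraries in 8 genes (14.0%, beside 8.63% of all rows) and wholly below in 11 genes (19.3%, beside 8.7%), and the groups overlapped in the remaining 38. Among the 13712 protein-coding rows tested, 10.2% lay apart higher and 11.5% apart lower, and 7.07% were higher and 6.86% lower at an unadjusted p under 0.05. The median log2 fold change of the 57 genes was -0.05, with a range from -0.54 to 0.99, and that of all rows tested was 0.01. Log2 fold changes were positive in 23 genes and negative in 34.

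**Figure D2:**
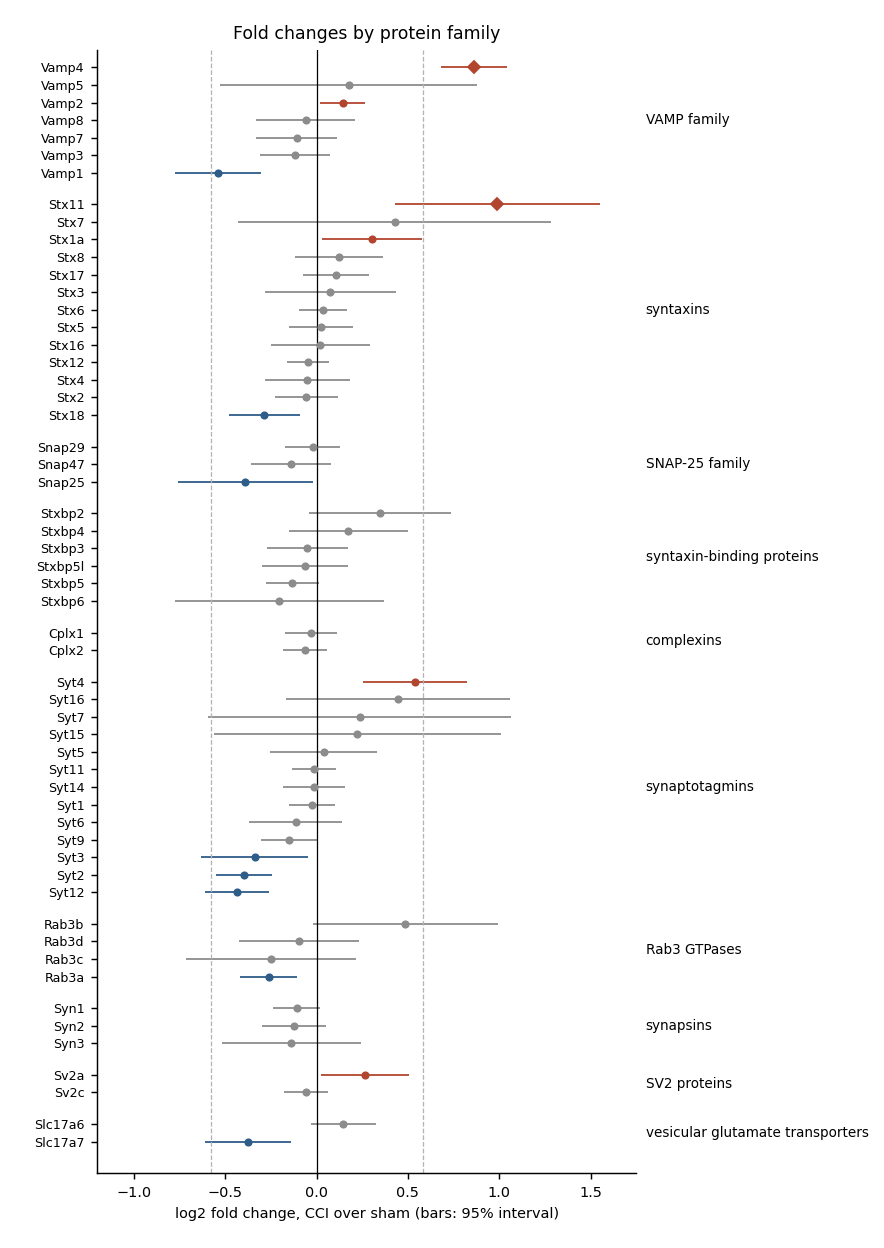
Log2 fold change of CCI over sham for 55 tested release genes, grouped by protein family, with 95% intervals from the edgeR fit. Diamonds mark the 2 called genes (Vamp4 at 0.86 and Stx11 at 0.99), red and blue mark an unadjusted p under 0.05 with higher or lower values, grey marks the other genes, and dashed lines mark 0.58 in either direction.

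Among the VAMPs, the vesicle-side SNAREs, all 7 genes were tested, and Vamp4, Vamp2 and Vamp1 differed at an unadjusted p under 0.05. Of these 2 were higher (28.6% of the family, beside 5.57% of all rows) and 1 was lower (14.3%, beside 5.18%). Vamp4 encodes a SNARE of the trans-Golgi network and endosomes that also takes part in slow forms of vesicle recycling. Its CPM was 102.5, 88.8 and 90.2 in CCI 1, 2 and 3 and 49.7, 53.7 and 51.5 in sham 1, 2 and 3. Every CCI library was far above every sham library, and the gap between the groups was much wider than the spread within either. The fold was 1.82 (log2 0.86 ± 0.07 SE, edgeR adjusted p = 0.0267). The adjusted p went above 0.05 when any library other than CCI 1 was left out. It was 0.0182 without CCI 1, 0.0969 without CCI 2, 0.0505 without CCI 3, 0.123 without sham 1, 0.0818 without sham 2 and 0.1403 without sham 3, while the log2 fold change stayed between 0.79 and 0.90.

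Vamp1 and Vamp2 encode the 2 synaptobrevins that drive vesicle fusion at nerve endings, and they differed in opposite directions. For Vamp1 the CPM was 478, 601 and 609 in the CCI libraries and 809.8, 827 and 816 in the sham libraries. Sham values were close together, the CCI values were all lower, and CCI 1 was the lowest. Levels were 1.45-fold lower in CCI (log2 -0.54 ± 0.10 SE, edgeR adjusted p = 0.136). The change passed the fold limit without CCI 2 (log2 -0.59) and without CCI 3 (log2 -0.60) and was -0.43 without CCI 1. As in any bulk tissue, fewer cells that express a gene and less of its RNA per cell cannot be told apart.

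Vamp2 had a CPM of 363, 343 and 343 in CCI and 326, 308 and 316 in sham. All CCI libraries were above all sham libraries, by a small step (log2 0.14 ± 0.05 SE, edgeR adjusted p = 0.389). Vamp3, Vamp7 and Vamp8, which serve recycling endosomes, lysosomes and secretory granules, had log2 fold changes of -0.12, -0.11 and -0.06 with overlapping groups. Vamp5 shares an assembled row with the neighbouring gene Rnf181, so its value (log2 0.18 ± 0.29 SE) belongs to both, and sham 3 at 22.7 CPM stood far under the other 5 libraries (41.7 to 52.9 CPM).

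In the genome of the count table (V101) the row of Vamp4 spans 80445850 to 80483600 on chromosome 13, that of Vamp1 spans 157726941 to 157733643 on chromosome 4 and that of Stx11 spans 7039162 to 7064870 on chromosome 1. The promoters of the 3 genes with the largest changes in size, Vamp4, Vamp1 and Stx11, are shown because the results turn on them. They run from 250 bases before to 50 bases after the RefSeq start in the GRCr8 build, 5′ to 3′ on the gene's strand. Capitals mark the cyclic AMP response element TGACGTCA and the GC box GGGCGG with its reverse complement CCGCCC. Vamp4 lies at chr13:77453070-77453369 on the plus strand, Vamp1 at chr4:159698644-159698943 on the plus strand and Stx11 at chr1:9140170-9140469 on the minus strand.
Vamp4: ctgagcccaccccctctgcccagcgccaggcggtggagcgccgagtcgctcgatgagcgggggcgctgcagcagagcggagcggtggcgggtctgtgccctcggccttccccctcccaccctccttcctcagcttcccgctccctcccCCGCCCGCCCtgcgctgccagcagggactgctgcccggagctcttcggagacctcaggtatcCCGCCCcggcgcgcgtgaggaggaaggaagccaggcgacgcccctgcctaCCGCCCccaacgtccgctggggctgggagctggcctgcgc
Vamp1: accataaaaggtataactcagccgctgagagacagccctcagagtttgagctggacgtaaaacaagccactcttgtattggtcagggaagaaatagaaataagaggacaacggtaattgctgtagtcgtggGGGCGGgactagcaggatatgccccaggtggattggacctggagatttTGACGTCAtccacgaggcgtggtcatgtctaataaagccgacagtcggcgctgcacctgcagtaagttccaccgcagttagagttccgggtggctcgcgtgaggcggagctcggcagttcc
Stx11: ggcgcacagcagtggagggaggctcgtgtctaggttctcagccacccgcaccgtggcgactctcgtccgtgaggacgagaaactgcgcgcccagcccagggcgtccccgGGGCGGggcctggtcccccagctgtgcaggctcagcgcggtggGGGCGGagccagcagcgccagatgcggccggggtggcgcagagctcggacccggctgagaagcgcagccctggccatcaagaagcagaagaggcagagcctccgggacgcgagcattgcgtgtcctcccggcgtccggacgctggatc
The Vamp4 window held 4 GC boxes, of which 2 overlap, the Stx11 window held 2, and the Vamp1 window held 1 GC box and 1 cyclic AMP response element whose first base lies at -71 from the start.

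Promoters were found for 52 of the 64 genes. A GC box on either strand was in 36 of them (69.2%), against 36.0% of the windows of the same length of 27457 symbols. Those symbols were not matched to the release genes by gene type or level, so the shares describe unlike sets. The cyclic AMP response element was in 2 (3.85%, Vamp1 and Syn1) against 2.00%, the E-box CACGTG in 5 (9.62%) against 7.08% and the TATA box TATAAA in 4 (7.69%) against 15.3%. Neither the AP-1 letters TGACTCA or TGAGTCA (5.04% of all windows) nor the left arm of the RE1 element, TTCAGCACC (0.404%), were in any window of the release genes, which says only that these letters are not in these 300 bases. GC boxes were in the windows of called and uncalled genes alike, among them Vamp4, Stx11, Vamp1, Vamp2, Cplx1 and Syt1.

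Of the 14 syntaxins, the target-membrane SNAREs, 1 was called higher, beside 2.57% of all rows, and 0 were called lower, beside 1.26%. Stx11 encodes a syntaxin without a transmembrane segment that is known from cytotoxic lymphocytes, platelets and macrophages. It was counted 882, 564 and 614 times in CCI and 385, 419 and 280 times in sham, which gave a CPM of 10.8, 6.99 and 8.06 in CCI and 4.38, 5.28 and 3.38 in sham. The groups did not overlap, and CCI 1 was the highest library. The fold was 1.99 (log2 0.99 ± 0.23 SE, 95% interval 0.43 to 1.55, edgeR adjusted p = 0.222).

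Most macrophage markers were also higher in CCI. Of 10 such genes 7 were higher at an unadjusted p under 0.05 (70.0%, beside 5.57% of all rows). Of these 5 were called (Cd68, Csf1r, Cx3cr1, Lyz2 and Tyrobp), beside 2.57% of all rows called higher. The CPM of the 10 markers summed to 335 to 460 in CCI against 193 to 222 in sham, with CCI 1 the highest here as well. Lyz2 alone held 317 CPM of the sum in CCI 1. In sham 1, 2 and 3 the sum was 221, 193 and 222 CPM, of which Lyz2 held 140, 119 and 126 CPM. No marker of that list was at 0 in any library. Stxbp2, whose product partners Stx11 in blood cells and was picked out after its values were seen, had a CPM of 2.79, 3.23 and 3.14 in CCI and 2.63, 2.40 and 2.16 in sham (log2 0.35 ± 0.16 SE, edgeR adjusted p = 0.522). All CCI values of Stxbp2 were above all sham values, without passing the test. The part of the macrophage markers in the values of Stx11 and Stxbp2 was not tested.

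Stx1a encodes a syntaxin of the nerve ending itself. Its CPM was 23.2, 17.9 and 20.4 in CCI and 15.4, 17.4 and 17.1 in sham. CCI was above sham in every library, by little between CCI 2 and sham 2 (log2 0.30 ± 0.11 SE, edgeR adjusted p = 0.418).

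The syntaxins of inner membranes mostly overlapped between the groups. Stx18, a SNARE of the endoplasmic reticulum, had a CPM of 18.6, 20.8 and 20.9 in CCI against 23.2, 24.96 and 25.4 in sham, with no overlap (log2 -0.29 ± 0.08 SE, edgeR adjusted p = 0.288). The endosomal Stx12, the syntaxin with the highest level at 46.9 FPKM, had a log2 fold change of -0.05 ± 0.05 SE. Stx7, another endosomal syntaxin, was uneven among the sham rats with a CPM of 25.7, 74.7 and 58.1, against 74.9, 61.9 and 76.3 in CCI, so its log2 fold change of 0.43 ± 0.36 SE was within that spread. The other syntaxins tested (Stx2, Stx3, Stx4, Stx5, Stx6, Stx8, Stx16 and Stx17) had log2 fold changes from -0.06 to 0.12.

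Snap25, the plasma membrane partner of the syntaxins, had a CPM of 413, 547 and 474 in CCI and 509, 722 and 648 in sham. CCI 2 was above sham 1, so the groups overlapped although the mean was lower in CCI (log2 -0.39 ± 0.15 SE, edgeR adjusted p = 0.437). Snap29, which acts in the fusion of autophagosomes, and its relative Snap47 had log2 fold changes of -0.02 ± 0.06 and -0.14 ± 0.09 SE with overlapping groups. The 95% interval of Snap29 ran from -0.17 to 0.13.

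Among the syntaxin-binding proteins, Stxbp5, the tomosyn gene, whose product competes for syntaxin, had 106, 95.2 and 100.8 CPM in CCI against 106, 113 and 112 in sham (log2 -0.13 ± 0.06 SE, edgeR adjusted p = 0.515).

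Both tested complexins were close to level. Cplx1 had a CPM of 609, 635 and 638 in CCI and 599, 666 and 659 in sham, and Cplx2 had 93.2, 91.9 and 96.4 in CCI and 100.2, 97.4 and 96.4 in sham. Their groups overlapped, and the log2 fold changes were -0.03 ± 0.06 SE for Cplx1 and -0.06 ± 0.05 SE for Cplx2. The 95% intervals ran from -0.17 to 0.11 and from -0.18 to 0.06.

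Of the 17 synaptotagmins, not all of which sense calcium, 13 were tested. Of these 0 were called, beside 2.57% of all rows called higher and 1.26% called lower. At an unadjusted p under 0.05, 1 was higher (7.69%, beside 5.57% of all rows) and 3 were lower (23.1%, beside 5.18%). Syt4, a synaptotagmin of dense core vesicles and Golgi-derived membranes, had a CPM of 479, 411 and 348 in CCI and 266, 299 and 288 in sham. Each CCI library was above each sham library, with CCI 1 the highest, and the fold was 1.45 (log2 0.54 ± 0.12 SE, edgeR adjusted p = 0.201). Without CCI 3 the log2 fold change was 0.65 and passed the fold limit.

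Syt2 and Syt1 are the fast sensors for synchronous release. Syt2 had a CPM of 405, 462 and 418 in CCI and 555, 577 and 561 in sham, and Syt1 had 273, 262 and 275 in CCI and 263, 284 and 278 in sham. The groups were well apart for Syt2, which was 1.32-fold lower (log2 -0.40 ± 0.06 SE, edgeR adjusted p = 0.109). For Syt1 they overlapped, at a log2 fold change of -0.03 ± 0.05 SE with a 95% interval from -0.15 to 0.10.

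Syt12, a synaptotagmin that does not sense calcium, had a CPM of 12.7, 12.3 and 12.4 in CCI against 16.4, 17.0 and 17.2 in sham. Both groups were tight, and the level was 1.35-fold lower in CCI (log2 -0.43 ± 0.07 SE, edgeR adjusted p = 0.114). Syt3, a high-affinity calcium sensor, had 21.3, 25.6 and 29.1 CPM in CCI against 30.1, 33.3 and 32.9 in sham (log2 -0.34 ± 0.12 SE, edgeR adjusted p = 0.395), and the highest CCI library was just under the lowest sham library. Syt11, the synaptotagmin with the highest level, was at 1108, 1095 and 1051 CPM in CCI and 1060, 1115 and 1106 in sham, with a log2 fold change of -0.01 ± 0.05 SE whose sign turned in 4 of the 16 alternative settings tried. Syt7, a sensor for slow release, varied about as much within the groups as between them, at 215, 179 and 124 CPM in CCI and 117, 224 and 98.0 in sham.

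Of the 4 Rab3 genes 1 was lower at an unadjusted p under 0.05. Rab3a, the GTPase that tethers vesicles near release sites, had a CPM of 183, 201 and 203 in CCI and 222, 236 and 245 in sham. No CCI library reached a sham library, and the level was 1.20-fold lower (log2 -0.26 ± 0.07 SE, edgeR adjusted p = 0.245). Rab3d, found in secretory cells, had a log2 fold change of -0.10 ± 0.14 SE, and the sign turned without sham 3 (0.07), its highest library. The scarce Rab3b, at 4.77, 6.12 and 4.92 CPM in CCI and 3.49, 3.06 and 4.74 in sham, had a log2 fold change of 0.49 ± 0.21 SE (edgeR adjusted p = 0.482).

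Synapsins tie vesicles into a reserve pool. Syn1 had a CPM of 165, 165 and 165 in CCI and 180.2, 168 and 185 in sham, Syn2 had 186, 190.2 and 184 in CCI and 189.8, 196 and 224 in sham, and Syn3 had 44.3, 32.9 and 34.8 in CCI and 48.5, 39.7 and 35.1 in sham. The groups were apart for Syn1 and overlapped for Syn2 and Syn3. The log2 fold changes were -0.11 ± 0.05, -0.12 ± 0.07 and -0.14 ± 0.16 SE, and none of the 3 had an unadjusted p under 0.05.

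Sv2a and Sv2c encode vesicle glycoproteins that support release and are entry receptors for botulinum toxin A. Sv2c was the more abundant by far, at 161 FPKM against 15.2 FPKM for Sv2a. The CPM of Sv2a was 85.2, 77.9 and 70.7 in CCI and 58.6, 64.3 and 71.4 in sham, so that CCI 3 lay just under sham 3 (log2 0.27 ± 0.10 SE, edgeR adjusted p = 0.418). Sv2c had 1569, 1603 and 1681 CPM in CCI and 1697, 1666 and 1687 in sham, with a log2 fold change of -0.06 ± 0.05 SE. Sv2b is not analysed here.

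The vesicular glutamate transporters load glutamate, the transmitter of most DRG neurons. Slc17a7 (VGLUT1), known from large myelinated sensory neurons, had a CPM of 119.9, 139 and 152 in CCI and 166, 178 and 189 in sham. All CCI libraries were under all sham libraries, and the level was 1.298-fold lower (log2 -0.38 ± 0.10 SE, edgeR adjusted p = 0.260). Slc17a6 (VGLUT2), present in most DRG neurons, had 174, 155 and 149 CPM in CCI and 137, 148 and 146 in sham, apart in the other direction without passing the test (log2 0.15 ± 0.07 SE, edgeR adjusted p = 0.557). Slc17a8 (VGLUT3) was near the detection filter, at 1.92, 1.26 and 1.98 CPM in CCI and 1.95, 2.87 and 1.74 in sham, and was not tested.

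**Figure D3:**
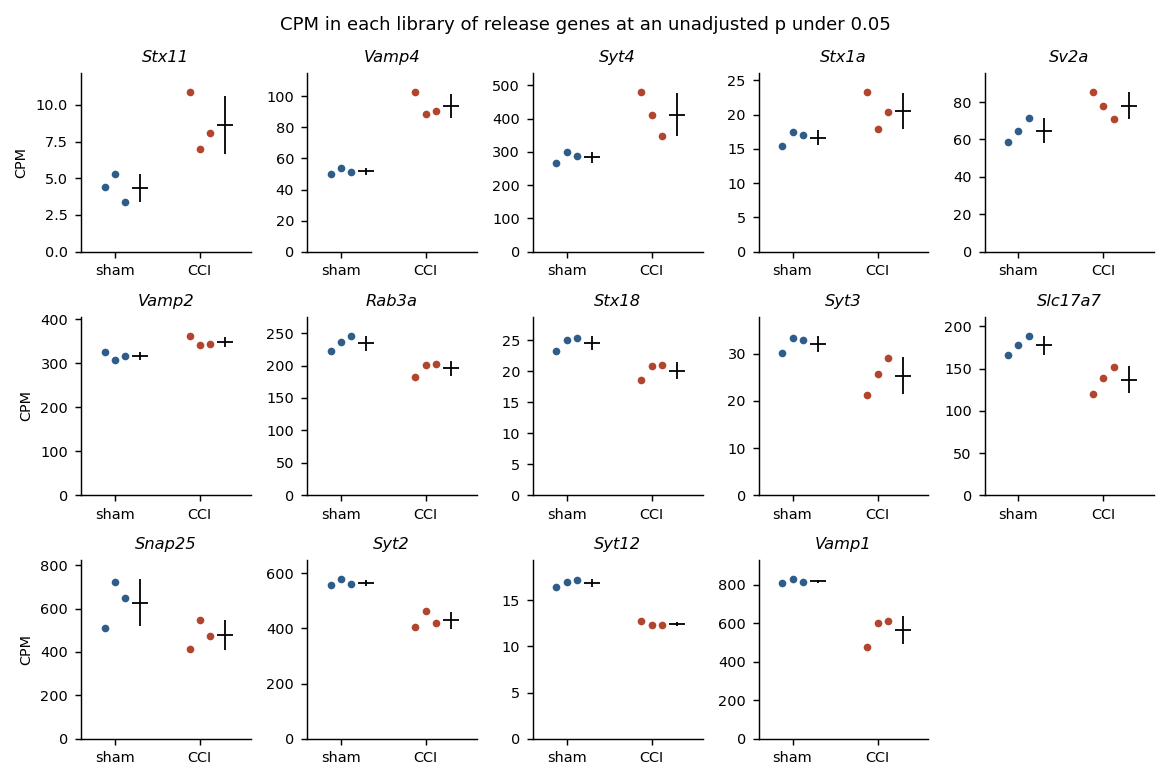
CPM in each library of 14 release genes at an unadjusted p under 0.05, each panel with its own axis from 0, sham in blue and CCI in red, with the group mean and SD beside the points. Vamp4 lies at 49.7 to 53.7 CPM in sham and 88.8 to 102.5 CPM in CCI, and the groups overlap in Snap25 and Sv2a.

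Vamp1, Syt2 and Slc17a7 are expressed strongly by large myelinated sensory neurons. Genes of those cells on the marker lists, the neurofilament genes and Pvalb, had lower mean CPM in CCI than in sham. The neurofilament gene Nefh had 2166, 2579 and 2421 CPM in CCI against 3265, 3522 and 3668 in sham (log2 -0.55 ± 0.08 SE, edgeR adjusted p = 0.103), and Nefl had a log2 fold change of -0.57 ± 0.06 SE (edgeR adjusted p = 0.0457). The third neurofilament gene, Nefm, overlapped between the groups, at 2150, 2534 and 1141 CPM in CCI and 3583, 1927 and 1591 in sham (log2 -0.29 ± 0.39 SE). Pvalb, which proprioceptive neurons share with muscle fibres and which stood here on the muscle list, was called lower (log2 -0.69 ± 0.13 SE). The 12 neuronal markers went both ways, with Nefl and Nefh lower and Tubb3 and Prph higher at an unadjusted p under 0.05. The median log2 fold change of the 12 was 0.004, with 6 positive and 6 negative. The CPM of the 12 summed to 13744 to 15524 in CCI against 16599 to 17440 in sham. Nefl (mean 3404 CPM in CCI, 5068 in sham) and Nefh (2389 and 3485) made up much of that sum. None of the 12 was at 0 in any library. Of 9 skeletal muscle genes, Pvalb included, 6 were called lower, beside 1.26% of all rows, with sham 1 the highest library of the summed list. The summed CPM of the 8 satellite glia markers (1142 to 1197 in CCI, 1057 to 1165 in sham) and of the 8 Schwann cell markers (6451 to 8852 and 7934 to 8972) overlapped between the groups. The part of these markers in the values of Vamp1, Syt2 and Slc17a7 was not tested.

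Ratios of close relatives within a library do not depend on library scaling. The 7 pairs taken here were chosen after the values were seen, so they are described without a test. Vamp1 was 1.17, 1.56 and 1.58 times as high as Vamp2 in FPKM in CCI 1, 2 and 3 and 2.21, 2.38 and 2.29 times as high in sham 1, 2 and 3. The ratio of Vamp4 to Vamp2 was 0.118 ± 0.00561 (SD, n = 3) in CCI and 0.0716 ± 0.00475 in sham. For Syt2 to Syt1 it was 0.990 ± 0.0945 in CCI and 1.28 ± 0.0338 in sham, so that Syt2 stood over Syt1 in all sham libraries but in CCI 2 alone of the injured ones. Slc17a7 to Slc17a6 gave 1.36 ± 0.261 in CCI and 1.93 ± 0.0745 in sham. In these 4 pairs the groups did not overlap, and in the other 3 pairs (Sv2a to Sv2c, Syn1 to Syn2 and Cplx1 to Cplx2) they did.

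**Figure D4:**
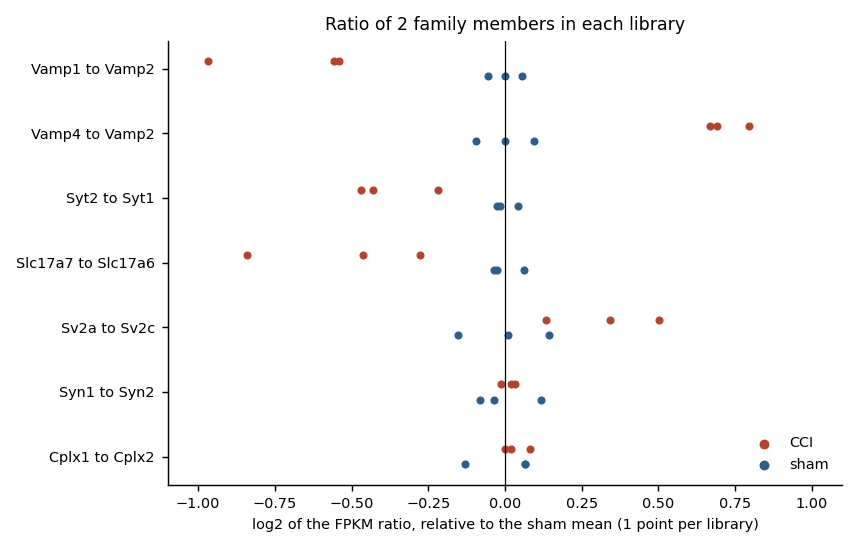
FPKM ratio of 7 pairs of related release genes in each library, as the log2 difference from the sham mean, with CCI in red and sham in blue. The CCI points of Vamp1 to Vamp2, Syt2 to Syt1 and Slc17a7 to Slc17a6 lie wholly left of the sham points, those of Vamp4 to Vamp2 lie wholly right, and the other 3 pairs overlap.

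The wider release pathway was read from a list of 111 further genes for active zone scaffolds, priming and SNARE disassembly, other vesicle membrane proteins, dense core vesicles, other vesicular transporters, Rab effectors and endocytosis. Of these 99 were tested, 1 was called higher and 0 were called lower, beside 2.57% and 1.26% of all rows. At an unadjusted p under 0.05 edgeR found 9 higher (9.09%, beside 5.57%) and 13 lower (13.1%, beside 5.18%). The CCI libraries lay wholly above sham in 12 genes (12.1%, beside 8.63%) and wholly below in 22 (22.2%, beside 8.7%). DESeq2 also called 1 higher and 0 lower, and both limma fits called 0. The called gene was Syngr1, a synaptogyrin of the vesicle membrane, at 82.6, 88.9 and 42.0 CPM in CCI and 36.3, 45.1 and 46.6 in sham. CCI 3 lay within the sham range (log2 0.74 ± 0.28 SE, edgeR adjusted p = 0.418), and the call was lost without CCI 1, sham 1 or sham 3.

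Some of these genes are named after their values were seen. Dense core vesicle genes went both ways. The granule protein Chga had 63.1, 61.5 and 58.5 CPM in CCI against 89.3, 81.2 and 92.9 in sham (log2 -0.52 ± 0.07 SE, edgeR adjusted p = 0.0789), and its relative Chgb had a log2 fold change of -0.37 ± 0.10 SE. By contrast Ptprn, also of dense core vesicles, had a log2 fold change of 0.28 ± 0.09 SE with CCI above sham in every library. A row that joins Scg2, another granule protein, with its neighbour Ap1s3 had 0.22 ± 0.06 SE, a value that belongs to both genes. In the disassembly step Nsf, the ATPase that takes spent SNARE complexes apart, and its cofactor Napb were at -0.28 ± 0.07 and -0.16 ± 0.05 SE, both with no overlap. The Rab3 effector Rph3a was at -0.27 ± 0.05 SE, the active zone scaffold Pclo at -0.27 ± 0.06 SE and the vesicle protein Syp at -0.14 ± 0.04 SE. Each was below sham in all 3 CCI libraries. The groups they were listed in differed. In priming and disassembly, with Nsf, Napb and Rph3a, 11 genes were tested. At an unadjusted p under 0.05, 3 of the 11 were lower (27.3%, beside 5.18% of all rows) and 0 were higher (beside 5.57%). Wholly below sham lay 5 of the 11 (45.5%, beside 8.7% of all rows), and 0 lay wholly above (beside 8.63%). Of the 14 active zone scaffolds, 3 were higher (21.4%, beside 5.57% of all rows) and 1 was lower (7.14%, beside 5.18%) at an unadjusted p under 0.05. In each direction 3 lay apart (21.4%, beside 8.63% of all rows higher and 8.7% lower). Of the 16 other vesicle membrane proteins tested, 3 were higher (18.75%, beside 5.57% of all rows) and 2 lower (12.5%, beside 5.18%) at that p limit.

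The 7 release genes under the filter were Syt8, Syt10, Syt13, Syt17, Cplx3, Cplx4 and Slc17a8. Syt13 reached 2.26 CPM at most, Syt10 reached 0.756 CPM and Syt17 reached 1.31 CPM, each with overlapping groups. The retinal complexins Cplx3 and Cplx4 had 14 and 15 counts in CCI 1, and Cplx3 had 0 counts in all 3 sham libraries, which allows up to 0.0341 to 0.0378 CPM. Syt8 had 2 counts in CCI 1, 4 counts in sham 2 and 0 in the others.

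A further 20 assembled rows carried the symbols of 13 release genes, and 16 of them lay on the opposite strand. The kit marks strand, but the sources do not state whether the counting used it, so reads of a gene and its antisense row cannot be told apart with certainty. Of these rows 19 were tested with edgeR, with 0 called, 0 at an unadjusted p under 0.05, and 17 of the 20 held under 10% of the counts of the row used. The other 3 belonged to Stx4 (38.1%), Stxbp3 (24.0%) and Cplx2. The last was a plus-strand row at the end of Cplx2 with 68061 counts, more than the Cplx2 row itself, and a log2 fold change of -0.02 ± 0.05 SE. Vamp5 and Vamp8 are neighbours on chromosome 4, and neither differed at an unadjusted p under 0.05.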

How the data were processed

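Whole DRG RNA of 3 CCI and 3 sham rats was sequenced in paired ends after depletion of ribosomal RNA, with 1 library per rat. Clean reads were aligned with HISAT2 (2.0, as the submitters' processing notes give it) to the rat genome that the methods call V101, assembled with StringTie 1.3.0 and summarised per gene row. The deposited read counts are whole numbers without normalization, and the FPKM values deposited by the authors are those counts scaled to library total and row length.

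Counts were tested with edgeR 4.0.16 (quasi-likelihood, TMM factors, 2.52 prior degrees of freedom, no covariate) on all rows whose FPKM averaged 0.5 or more, with Benjamini-Hochberg adjustment over all 26663 rows tested. For a symbol on several rows the protein-coding row was taken first, then the row with the largest count. The SE is the size of the log2 fold change over the root of the F statistic. DESeq2 1.42.0, limma 3.58.1, R 4.3.3, Python 3.11.15, pandas 2.3.3, scipy 1.17.1 and matplotlib 3.10.9 served the alternatives, tables and figures. The fits were tested on simulated data. Promoters came from RefSeq tables for GRCr8, and coordinates of the count table, in another build, were not mixed with them.

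Genes named were those called, those apart between the groups at an unadjusted p under 0.05, the 2 with the highest FPKM of each family, all synapsins, SV2 genes and glutamate transporters, and the core release machinery, and other genes are said to be chosen after their values were seen or stand in a summary of a family. The members and lists were chosen with earlier results of these data known. Replicates were separate rats, so p-values measure the spread between these rats. Alternatives were other scalings, tests, filters, sets of rows, the replicate number as a block, and fits in which 1 library at a time was left out. Some genes of these families are counted in the totals but are not reported here.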

Additional observations from a re-analysis of the deposited data

How the results depend on the processing

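Of 464 comparisons of the 29 named genes tested with 16 alternatives, 454 kept direction and side of the limits. Signs turned, all near 0, for Rab3d without sham 3 (range over libraries left out -0.187 to 0.0732), Snap29 without CCI 1 or sham 2 (-0.0561 to 0.0098), and Syt11 without CCI 3 or sham 2 (-0.0338 to 0.0105) and by limma on log2(FPKM + 1) (0.0045) and log2(FPKM + 0.1) (0.0045). Release genes called higher numbered 2 to 3 and called lower 0 to 1 when a library was left out. At an adjusted p under 0.05 there was 1 with edgeR and 7 with DESeq2 (beside 2.8% of all rows, against 0.0938% with edgeR). There were 2 with protein-coding rows alone, where 41 of all 13712 rows were higher and 37 lower. Without a library there were 0 to 1, where 3 to 40 of all 26663 rows were higher and 3 to 21 lower. The median log2 fold change was -0.0275 by limma with 1 and -0.0301 with 0.1 added, -0.0391 without a filter, -0.0405 with protein-coding rows, -0.0316 with rows summed per symbol, and -0.0441 to -0.0174 without a library. Genes higher at an unadjusted p under 0.05 numbered 3 to 7 without a library. Further release genes called higher were 0 by both limma fits, 2 without a filter and 0 to 1 without a library, and 1 was called lower with protein-coding rows and 0 to 1 without a library. Same-numbered rats did not deviate together (correlations -0.0112, -0.0261 and -0.0745), and differently numbered rats gave -0.0222 to 0.0487. These values gave no sign of pairing by number, and a shared day of surgery or handling was not tested. With the replicate block 0 release genes passed the adjusted limit (Vamp4 adjusted p 0.195, log2 0.86), and so did 0 of all 26663 rows. In that fit 4 release genes were higher at an unadjusted p under 0.05 and 0 further genes were called higher. The low counts of the 7 genes under the filter and of Syt16 limit their precision. The cause of these shifts was not tested.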
